A study of Mus musculus and synthetic construct with 3 samples.

Results

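Mgp-rich hexagons are the spots of aortic tissue in which *Mgp* reads were frequent while contractile and collagen reads were few. They were chosen in a Seq-Scope experiment, in which a slide of barcodes with known positions captures the RNA of the tissue laid on it. UMIs, which count captured molecules, were summed over exons in hexagons with 12 µm sides, and hexagons with 50 or more genes were kept. A kept hexagon was a member when it held at least 4 *Mgp* UMIs, at most 2 UMIs summed over 5 contractile genes (*Acta2*, *Tagln*, *Myl9*, *Myh11*, *Csrp2*) and at most 2 summed over 5 collagen and fibroblast genes (*Col1a1*, *Col1a2*, *Dcn*, *Lum*, *Fbln1*). This rule found 597 Mgp-rich hexagons among 11712 kept hexagons, or 5.10%. A hexagon can hold parts of several cells, so these are spots and not cells.

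Matrix Gla protein, the product of *Mgp*, is a secreted protein of vessel wall and cartilage that is made active by vitamin K-dependent carboxylation. It keeps elastic tissue free of mineral and binds bone morphogenetic proteins (BMPs). In arteries it is made by smooth muscle cells, fibroblasts and endothelial cells, so it does not by itself name a cell type. *Eln* encodes elastin, the core of elastic fibres, and *Fn1* encodes fibronectin, a matrix glycoprotein laid down during wound repair.

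The tissue came from male Apoe-/- mice on a normal diet, a strain that lacks apolipoprotein E. Minipumps delivered saline or angiotensin II (AngII, a peptide that raises blood pressure) for 4 weeks from 16 weeks of age, with an AngII dose of 1000 ng/ml; the study's methods give another age and another dose unit. Of the 5 AngII mice, 3 developed an abdominal aortic aneurysm (AAA), and those 3 suprarenal aortas and 3 from saline controls were embedded in pairs. Every animal, controls included, lacks *Apoe*, and the AAA group holds no AngII mouse without an aneurysm, so the drug and the aneurysm cannot be told apart.

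There were 10 control and 10 AAA sections of 10 µm thickness on 1 array, and which section belongs to which mouse was read from the study's drawing of the array. Kept hexagons numbered 663, 388 and 434 in controls 1 to 3 and 5553, 1970 and 2704 in AAA 1 to 3. The Mgp-rich hexagons held 61863 UMIs in AAA mice and 2427 in controls, so the controls bear little weight in any comparison of genes.

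The values that chose the members are given as a description. Of the 597 Mgp-rich hexagons, 287 held exactly 4 *Mgp* UMIs, 120 held 5, 66 held 6, 43 held 7 and 81 held 8 or more, with a highest value of 26. Just outside the threshold lay 629 hexagons with 3 *Mgp* UMIs and the same limits on the other genes, and their median depth was 83 UMIs against 90 in the members with 4. *Mgp* made up 5.07% of all UMIs in the Mgp-rich hexagons and 1.42% over all kept hexagons, and these members held 22.1% of all *Mgp* UMIs. Among 919 hexagons with 4 or more *Mgp* UMIs, 164 were set aside for 3 or more contractile UMIs and 178 for 3 or more collagen UMIs, of which 62 and 62 missed by a single UMI with the other sum within its limit. Contractile UMIs were 0 in 295 members, collagen UMIs were 0 in 305, and both were 0 in 152.

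Members were compared with 3 other classes. Mgp-poor hexagons met the same contractile and collagen limits but held at most 3 *Mgp* UMIs (9070 hexagons). Smooth muscle hexagons held 3 or more contractile UMIs and at most 2 collagen UMIs (1098), and collagen hexagons the reverse (872). *Mgp* was not limited to the members: it stood at 505, 460 and 631 UMIs per 10000 in the Mgp-rich hexagons of AAA 1 to 3, at 188, 199 and 234 in their smooth muscle hexagons, at 160, 143 and 222 in their collagen hexagons and at 98.4, 95.1 and 138 in their Mgp-poor hexagons. All levels below are UMIs per 10000 UMIs outside the 11 genes of the rule.

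Mgp-rich hexagons were present in 19 of 20 sections and took a higher share of kept hexagons in AAA mice. They made up 2.26%, 0.773% and 1.61% of kept hexagons in controls 1 to 3 and 4.34%, 5.08% and 8.54% in AAA 1 to 3. Every AAA mouse lay above every control. The mean share was 1.55% ± 0.747 (SD, n = 3) in controls and 5.99% ± 2.24 (SD, n = 3) in AAA, a difference of 4.44 percentage points (exact two-sided permutation test over mice, p = 0.1, the smallest value 3 against 3 can give). The counts behind the control shares were 15, 3 and 7 hexagons, and the exact 95% binomial interval of control 2 ran from 0.160% to 2.24%, against 7.52% to 9.66% in AAA 3 (counting error only). Smooth muscle hexagons, which the contractile limit sets aside, made up 25.8% of kept hexagons in controls and 6.99% in AAA. Collagen hexagons, set aside by the other limit, made up 1.08% and 8.37%. The part of these limits in the difference was not tested. More cells with *Mgp* and more *Mgp* RNA per cell cannot be told apart in these spots.

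**Figure D1:**
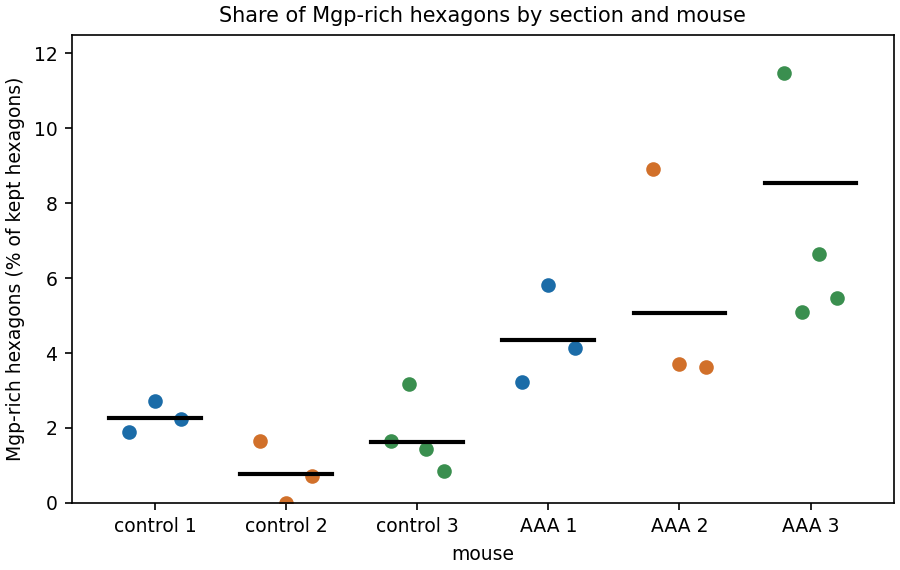
Share of kept hexagons that are Mgp-rich (%, vertical axis) in each of the 20 sections (points) of the 6 mice (horizontal axis); the black bar is the share over all kept hexagons of the mouse. The lowest AAA section stood at 3.23% and the highest control section at 3.17%.

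By section, the share ran from 3.23% to 11.5% in AAA and from 0% to 3.17% in controls. The first section of AAA 3 alone held 153 of the 572 AAA members, at 11.5%, and the first section of AAA 2 reached 8.92% while the other sections of that mouse stood at 3.70% and 3.61%. Sections of 1 mouse therefore differed by more than the gap between the lowest AAA and the highest control section. Depth moved with membership, since the median was 94 UMIs in the Mgp-rich hexagons and 76 over all kept hexagons. When each kept hexagon was thinned at random to 50 UMIs, the share was 0.95%, 0.606% and 0.864% in controls and 1.43%, 1.51% and 3.77% in AAA, without overlap (exact p = 0.1 by permutation over mice). In hexagons of 75 to 100 UMIs the groups did overlap, at 2.75%, 1.02% and 4.17% in controls and 4.21%, 2.62% and 12.3% in AAA, where the controls held 5, 1 and 4 members. After thinning, mean *Mgp* over all kept hexagons also overlapped, at 0.590, 0.413 and 0.648 UMIs in controls and 0.635, 0.611 and 0.952 in AAA. Within each embedding pair the AAA mouse had the higher mean. The part of mean *Mgp* in the higher share of members was not tested.

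Mgp-rich hexagons lay together in AAA sections. Another member lay within 45 µm of 63.1%, 61.0% and 76.2% of them in AAA 1 to 3, and of none of the 25 in controls (exact permutation p = 0.1). In the same AAA mice a member lay within 45 µm of 47.2%, 60.4% and 51.8% of collagen hexagons. For smooth muscle hexagons the shares were 44.6%, 45.7% and 55.8%, and for Mgp-poor hexagons 26.8%, 29.8% and 40.1%. In AAA 2 the members thus differed little from collagen hexagons. Joined at that distance, the 597 members formed 310 clumps, of which 208 were single hexagons, while 20 clumps of 5 or more held 191 members and the largest held 26, in the first section of AAA 3. The share with a near member depends on how many members a section holds, 0 to 7 in control sections and 10 to 153 in AAA sections. The test therefore does not separate clumping from the number of members. With UMIs counted over whole genes, introns included, the controls reached 30.8% ± 39.3 (SD, n = 3) against 63.0% in AAA (exact permutation p = 0.4).

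**Figure D2:**
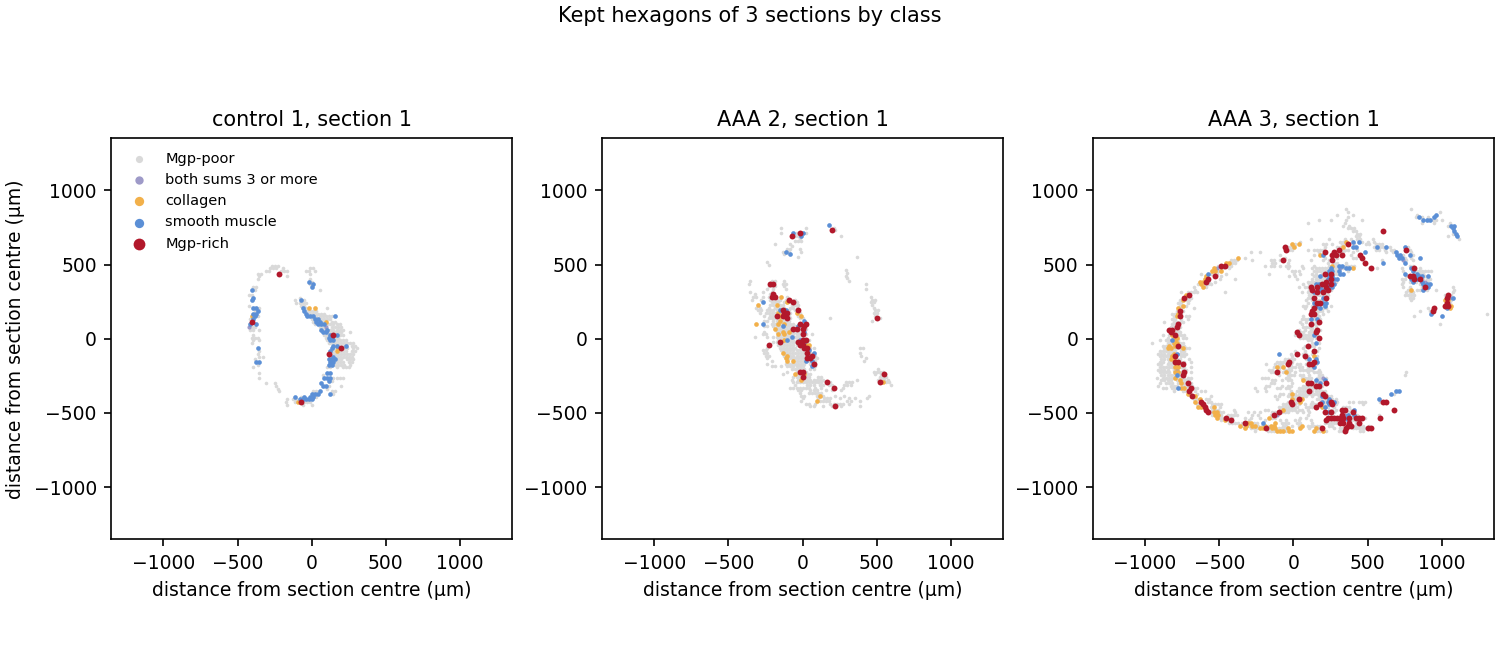
Kept hexagons of 1 control and 2 AAA sections, placed by their distance from the section centre (µm, both axes) and coloured by class. The 6 Mgp-rich hexagons of the control section are scattered, while the 48 and 153 of the AAA sections lie in strips and clumps, many beside smooth muscle hexagons.

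*Mgp* around the members is given as a description, since the rule uses that gene and caps it at 3 UMIs in Mgp-poor hexagons. In Mgp-poor hexagons within 45 µm of a member, *Mgp* made up 117, 110 and 157 UMIs per 10000 UMIs of all genes in AAA 1 to 3, against 88.1, 84.6 and 117 in Mgp-poor hexagons farther away. In controls the values were 92.9, 149 and 118 near and 91.4, 72.9 and 104 away. The near value was the higher one in each mouse, by little in control 1, and in control 2 it rested on 13 hexagons. The near hexagons were deeper in 5 of 6 mice, for example with a median of 79.0 against 72.0 UMIs in AAA 1.

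In each AAA mouse members were more often near a smooth muscle hexagon than Mgp-poor hexagons were. In AAA 1 to 3, 49.4%, 48.0% and 53.2% of Mgp-rich hexagons lay within 45 µm of a smooth muscle hexagon, against 30.9%, 28.2% and 35.7% of Mgp-poor hexagons and 28.8%, 35.2% and 26.6% of collagen hexagons. The 3 AAA mice differed little from each other, with a mean difference from Mgp-poor hexagons of 18.6 percentage points ± 1.14 (SD, n = 3; exact sign-flip permutation p = 0.25, the smallest value 3 mice can give). Over all 6 mice the difference was 18.3 ± 18.8 (SD) and was positive in 5 (exact sign-flip permutation p = 0.0625). With contractile and collagen sums of at most 1 it was 7.47 (exact sign-flip permutation p = 0.219). Control 3, with 7 members, went the other way, at 57.1% against 68.5%. Higher nearness was not particular to smooth muscle. Within 45 µm of a collagen hexagon lay 56.4%, 46.0% and 35.9% of members in AAA 1 to 3. For Mgp-poor hexagons those shares were 44.7%, 30.4% and 34.98%, lower in each mouse but by little in AAA 3. Controls 1 to 3 had 26.7%, 33.3% and 0% of members against 16.4%, 3.82% and 2.32%. Nearness to collagen hexagons was not tested.

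Members also had more kept hexagons around them, on average 11.9, 11.8 and 10.3 within 45 µm in AAA 1 to 3 against 10.5, 10.5 and 8.63 around Mgp-poor hexagons. Shares of those neighbours were also counted, a measure added after the data were seen. Smooth muscle hexagons made up 9.94%, 7.83% and 13.8% of the neighbours around members and 5.59%, 4.27% and 9.13% around Mgp-poor hexagons. That share was higher in 6 of 6 mice, by 4.09 percentage points ± 1.77 (SD; exact sign-flip permutation p = 0.0313, the smallest value 6 mice can give). In controls 1 to 3 it was 29.5%, 23.8% and 33.3% against 27.1%, 16.7% and 30.9%, from 132, 21 and 33 neighbours of members. In AAA mice alone the difference was 4.19 (exact sign-flip permutation p = 0.25). Median depth in AAA was 95 UMIs in members, 92 in smooth muscle and 72 in Mgp-poor hexagons, and its part was not tested. In AAA 1 to 3, collagen hexagons made up 16.5%, 8.43% and 7.21% of the members' neighbours and 10.2%, 5.44% and 7.84% of those of Mgp-poor hexagons. Over all 6 mice that difference was 2.28 ± 2.68 (SD) and was positive in 4 (exact sign-flip permutation p = 0.125). Nearness to a hexagon with a *Gpnmb* UMI, a gene of lipid-laden macrophages, did not have 1 direction, with 41.7%, 52.2% and 29.9% of *Gpnmb*-negative members and 34.9%, 39.8% and 33.7% of *Gpnmb*-negative Mgp-poor hexagons in AAA 1 to 3.

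**Figure D3:**
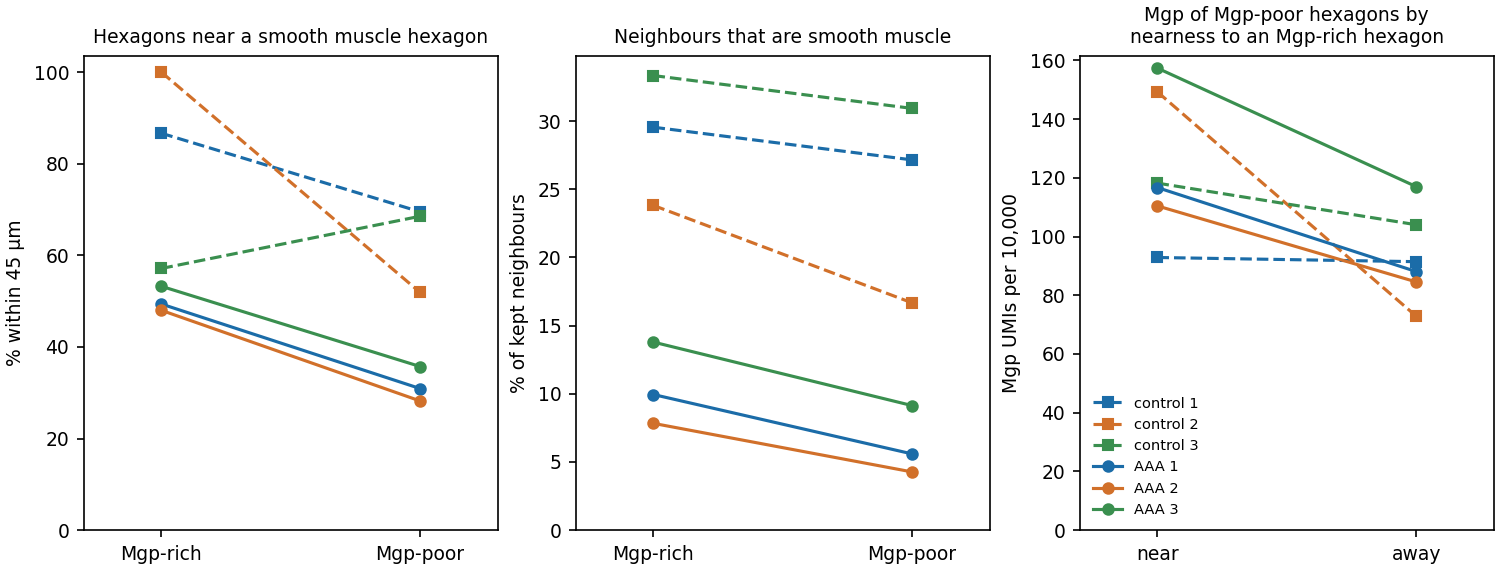
Left, share of Mgp-rich and Mgp-poor hexagons within 45 µm of a smooth muscle hexagon (%); middle, share of their kept neighbours within 45 µm that are smooth muscle hexagons (%); right, *Mgp* UMIs per 10000 in Mgp-poor hexagons near and away from a member. Each line is a mouse (solid, AAA; dashed, control), and only control 3 in the left panel rises to the right.

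Beyond the genes of the rule, the Mgp-rich hexagons differed from Mgp-poor hexagons in few genes. *Ccn2*, which encodes a matricellular growth factor induced by TGF-beta and by mechanical strain, was higher in members, and *Cfd* and *Fabp4*, the adipocyte genes of complement factor D and fatty acid binding protein 4, were lower. These 3 were the only genes past an adjusted p of 0.05 in edgeR's quasi-likelihood test with the mouse as a block, or 1.13% of 265 genes tested (0.377% higher and 0.755% lower). In the 3 AAA mice alone 1608 genes could be tested and 4 passed (0.249%), namely the same 3 and *Fn1*, with 0.124% higher and 0.124% lower.

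*Ccn2* stood at 15.2, 19.8 and 17.5 UMIs per 10000 in the Mgp-rich hexagons of AAA 1 to 3 and at 7.37, 5.90 and 8.23 in their Mgp-poor hexagons. The classes did not overlap, and 13.5% of AAA members held a *Ccn2* UMI against 5.02% of Mgp-poor hexagons. The log2 difference was 1.09 ± 0.23 (SE; edgeR adjusted p = 0.000194) over 6 mice and 1.17 ± 0.21 (edgeR adjusted p = 1.16e-05) in AAA mice. Control members held only 2 *Ccn2* UMIs, both in control 2. Leaving out any mouse in turn kept the gene past the threshold, while DESeq2 (adjusted p = 0.214), UMIs over whole genes (log2 difference 1.11, edgeR adjusted p = 0.915) and a fit with no filter on low counts (0.15, edgeR adjusted p = 0.913) did not.

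*Fn1* stood at 45.9, 42.2 and 52.6 UMIs per 10000 in AAA members and at 26.8, 23.9 and 37.7 in Mgp-poor hexagons. Again the AAA values of the classes did not overlap, with a UMI in 32.0% and 19.1% of hexagons. The call depended on the mice used, since the log2 difference was 0.49 ± 0.20 (SE; edgeR adjusted p = 0.472) over 6 mice, where control members held 5 *Fn1* UMIs in all, and 0.62 ± 0.14 (edgeR adjusted p = 0.00468) in AAA mice. *Eln* stood at 14.4, 12.1 and 24.0 in AAA members and 11.1, 9.80 and 15.3 in Mgp-poor hexagons, higher in each of the 3 mice, yet not past the test (0.30 ± 0.25, edgeR adjusted p = 0.825; 0.41 ± 0.19, edgeR adjusted p = 0.597 in AAA mice). *Fn1* and *Eln* had been proposed as markers of these hexagons with results of these data known, so neither is independent evidence, and the hexagons are named here by *Mgp* alone.

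*Cfd* stood at 20.5, 20.7 and 16 UMIs per 10000 in the Mgp-rich hexagons of AAA 1 to 3, below the 66.7, 42.8 and 42.6 of their Mgp-poor hexagons. The log2 difference was -1.49 ± 0.24 (SE; edgeR adjusted p = 2.15e-07). *Fabp4* stood at 8.72, 2.58 and 5.51 against 13.4, 14.8 and 9.90, a log2 difference of -1.12 ± 0.30 (SE; edgeR adjusted p = 0.0183) that missed the threshold without AAA 2 (edgeR adjusted p = 0.308) or without AAA 3 (edgeR adjusted p = 0.0986). Of 13 adipocyte genes listed, 11 were tested in AAA mice, 2 were lower, and 10 had a log2 difference below 0, with a median of -0.72 against -0.01 over all 1608 genes tested, of which 830 lay below 0. The 13 genes summed to 69.0, 77.5 and 70.6 UMIs per 10000 in AAA members, 146, 126 and 107 in Mgp-poor hexagons, 82.0, 78.4 and 71.2 in smooth muscle hexagons and 85.5, 60.4 and 56.0 in collagen hexagons. The Mgp-poor hexagons were the high class in each mouse, and the part of adipocyte RNA in the other differences from that class was not tested.

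**Figure D4:**
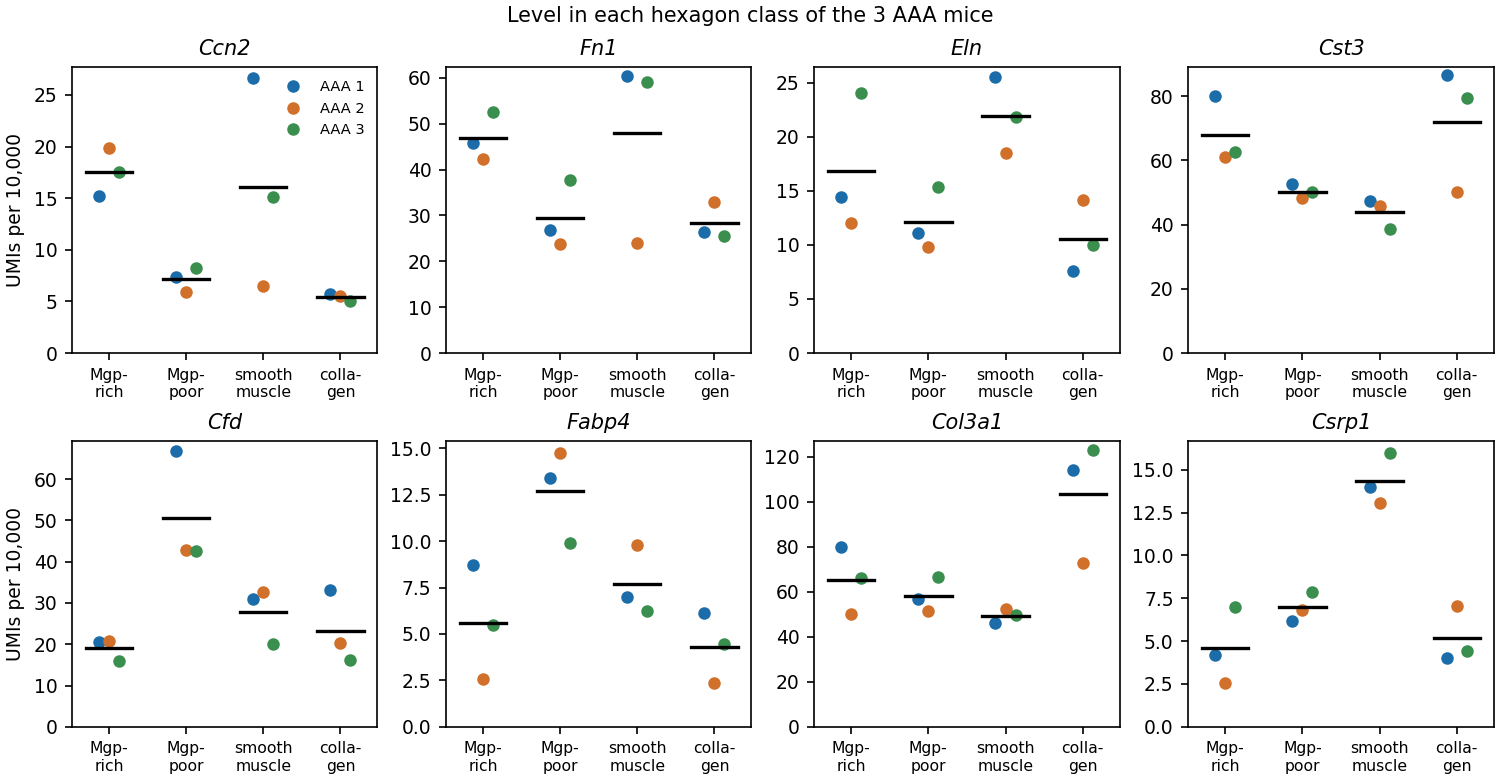
Level of 8 genes (UMIs per 10000 UMIs outside the rule's genes, vertical axes from 0) in each hexagon class of the 3 AAA mice (coloured points), with the mean as a black bar. *Ccn2* in Mgp-rich hexagons, 15.2 to 19.8, lies above both Mgp-poor and collagen hexagons, and *Cfd* is highest in Mgp-poor hexagons.

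Elastic fibre genes of the AAA members lay above those of Mgp-poor hexagons in direction but not past the test. Of 18 such genes 10 were tested in AAA mice, none passed, and 10 of 10 log2 differences were above 0, with a median of 0.32 against -0.01 over all genes (778 of 1608 above 0). *Loxl1*, a lysyl oxidase that crosslinks elastin, stood at 11.8, 6.03 and 9.01 against 6.25, 4.05 and 5.58 (log2 difference 0.73 ± 0.25, edgeR adjusted p = 0.324). *Ltbp2*, which binds fibrillin microfibrils, stood at 8.72, 14.6 and 9.52 against 8.48, 6.39 and 8.50, and the microfibril gene *Mfap5* at 9.48, 3.45 and 6.01 against 5.08, 4.40 and 4.46, lower in AAA 2. Summed over the 18 genes the members held 78.1, 56.0 and 84.1 UMIs per 10000 and Mgp-poor hexagons 57.0, 45.6 and 57.8, with 76.1, 55.5 and 73.4 in smooth muscle hexagons.

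In the list of fibronectin and adhesion genes 12 of 17 were tested in AAA mice, of which *Fn1* alone passed, and the median was 0.19 with 9 above 0. Of 15 TGF-beta and CCN genes 6 were tested and *Ccn2* alone passed, with a median of 0.39, and the relatives *Ccn3* and *Ccn5* had 36 UMIs each in members. *Tgfb1* itself had no UMI in any member. The list's sum was 38.7, 38.8 and 38.1 in AAA members and 25.1, 23.8 and 29.6 in Mgp-poor hexagons, of which *Ccn2* was the largest part in members.

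Genes that act on or with matrix Gla protein were scarce. Of 8 genes of vitamin K-dependent carboxylation 5 had a UMI in members and 3 were tested in AAA mice, none of which passed. *Vkorc1*, the reductase that recycles vitamin K, had 29 UMIs and stood at 5.69, 1.72 and 4.51 against 4.77, 4.05 and 4.88 in Mgp-poor hexagons, while *Ggcx*, the carboxylase, was at 0. *Gas6*, another carboxylated protein, had 30 UMIs at 4.55, 11.2 and 1.50 against 3.35, 4.90 and 2.30. Among 17 genes of BMP signalling and mineral control 13 had a UMI in members and 5 were tested, with no call and a median of 0.02. The most frequent was *Spp1*, the mineral-binding osteopontin, at 4.55, 6.89 and 3.51 against 3.24, 4.33 and 5.09. *Bmp6*, *Alpl*, *Runx2* and *Msx2*, genes of bone formation, were at 0. Of 12 cartilage genes 6 were at 0 in every member, *Acan* and *Col2a1* among them, and the list summed to 5.31, 3.45 and 8.51 in members and 7.12, 6.32 and 5.16 in Mgp-poor hexagons. At these depths 0 UMIs in the members allows up to 3, so absence is not shown.

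Markers of other cell types were also read in the members. The 16 macrophage genes summed to 121, 123 and 115 UMIs per 10000 in AAA members and 107, 137 and 139 in Mgp-poor hexagons, with 14 tested, none called and a median log2 difference of -0.00 in AAA mice. *Gpnmb* stood at 7.96, 10.3 and 11 in members and 6.14, 11.9 and 11.5 in Mgp-poor hexagons. The 12 endothelial genes summed to 21.2, 25.8 and 15.5 against 17.0, 15.9 and 15.8, with 6 tested and none called, while *Tie1* was at 0 and *Pecam1* had 8 UMIs in all members. The 15 adventitial fibroblast genes summed to 181, 139 and 134 against 155, 149 and 120, above the sum of the elastic fibre genes in each mouse. Of these 12 were tested with no call, and *Cst3*, the cystatin C gene, stood at 80.0, 61.2 and 62.6 against 52.6, 48.2 and 50.1 (log2 difference 0.38 ± 0.13, edgeR adjusted p = 0.320 in AAA mice). The 9 lymphocyte genes summed to 15.2, 6.89 and 17.0 against 13.6, 13.7 and 13.5, and the 5 red cell genes to 38.7, 9.48 and 9.52 against 14.2, 15.1 and 12.2. Among the remaining lists, the tested basement membrane (8 of 16), fibrillar collagen (7 of 11), small proteoglycan (5 of 8), actin and myosin (15 of 20), metalloproteinase and inhibitor (4 of 11), IGF binding (5 of 6) and immediate early genes (2 of 10) gave no call against Mgp-poor hexagons in AAA mice, with medians from -0.13 to 0.45.

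The 10 most frequent transcripts of the members outside the rule were *Alb* (500 UMIs), *Actb* (486), *Cst3* (421), *Col3a1* (411), *Mptx1* (351), *Apoe* (311), *Bgn* (285), *Fn1* (280), *Tpt1* (269) and *Eef1a1* (258). *Apoe* is the gene inactivated in these mice, and a transcript can still be counted from it. *Alb* and *Mptx1* are genes of liver and gut. A list of 11 liver and gut transcripts, put together after their values were seen, summed to 240, 269 and 252 UMIs per 10000 in AAA members, 275, 273 and 265 in Mgp-poor, 256, 274 and 237 in smooth muscle and 232, 252 and 252 in collagen hexagons. Against Mgp-poor hexagons in AAA mice 10 of the 11 were tested, none was called and the median log2 difference was -0.19.

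Against smooth muscle hexagons the members were lower in further actin-linked genes and higher in *Cst3* and *Igfbp4*. Of 109 genes tested over 6 mice, 3 were higher (2.75%) and 4 lower (3.67%), or 6.42% in all. *Csrp1*, a LIM protein of smooth muscle, stood at 4.17, 2.58 and 7.01 UMIs per 10000 in AAA members against 14.0, 13.1 and 16, without overlap, a log2 difference of -1.47 ± 0.31 (SE; edgeR adjusted p = 0.000261). *Mfge8*, a milk fat globule protein that bridges dying cells to phagocytes, stood at 9.86, 6.03 and 10.5 against 20.7, 13.1 and 16 (-0.92 ± 0.27, edgeR adjusted p = 0.0227). *Flna*, the actin crosslinker filamin A, stood at 15.5, 11.2 and 17.5 against 24.5, 20.7 and 24.0 (-0.69 ± 0.21, edgeR adjusted p = 0.0232). *Tmsb4x*, the actin-sequestering thymosin beta 4, stood at 23.5, 26.7 and 20.0 against 30.6, 39.2 and 35.1 (-0.56 ± 0.19, edgeR adjusted p = 0.0482).

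*Cst3* was higher in members than in smooth muscle hexagons, which held 47.3, 45.7 and 38.7 UMIs per 10000 (0.61 ± 0.16, edgeR adjusted p = 0.0128). *Igfbp4*, an IGF binding protein of adventitial fibroblasts, stood at 30.7, 19.8 and 19.5 against 15.9, 14.2 and 12 (0.73 ± 0.22, edgeR adjusted p = 0.0232). The third higher call, *Hba-a2*, a globin gene, was not alike in the 3 AAA mice, at 26.9, 5.17 and 6.51 in members against 5.64, 15.2 and 5.78. In AAA mice alone 314 genes were tested and 11 passed (3.5%), 4 higher (1.27%) and 7 lower (2.23%), the additions being *Col3a1* (log2 difference 0.53), *Cpe* (-0.57), *Tpm2* (-0.996) and *Myl6* (-0.50), of which *Col3a1* and *Tpm2* went the other way in AAA 2. Of 20 actin and myosin genes outside the rule 11 were tested there, 4 were lower and 11 of 11 log2 differences lay below 0, with a median of -0.61 against 0.03 over all genes tested. The smooth muscle hexagons were themselves chosen by contractile UMIs, which the rule limits in members. Lower levels of other contractile and actin-linked genes in members are thus not independent of the rule. Without AAA 1 none of the genes passed over the remaining 5 mice, without AAA 3 there was 1 call and without control 2 there were 4, and *Hba-a2* turned to -0.18 without AAA 1. *Tmsb4x* passed in 0 of 6 fits that left out a mouse, *Flna* in 2 of 6 and *Cst3* in 3 of 6.

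*Ccn2*, *Fn1* and *Eln* did not pass the test against smooth muscle hexagons. *Ccn2* stood at 26.6, 6.53 and 15.1 UMIs per 10000 in smooth muscle hexagons (log2 difference -0.15 ± 0.24, edgeR adjusted p = 0.798), *Fn1* at 60.5, 24.0 and 59.2 (-0.21 ± 0.17, edgeR adjusted p = 0.529) and *Eln* at 25.5, 18.5 and 21.8 (-0.49 ± 0.21, edgeR adjusted p = 0.155). The smooth muscle values of *Ccn2* spanned those of the members, and those of *Fn1* lay above them in AAA 1 and AAA 3 and below them in AAA 2. In *Ccn2* the direction turned without AAA 1 (0.56).

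Against collagen hexagons the members held more *Fn1* and *Cpe* and less *Col3a1*, *C3* and *Igfbp4*. Those were the 5 calls (10.9%) among the 46 genes tested over 6 mice, 2 higher (4.35%) and 3 lower (6.52%), where the control collagen libraries held only 98 to 1082 UMIs. The collagen hexagons were themselves chosen by collagen and fibroblast UMIs, which the rule limits in members. Lower levels of other collagen and fibroblast genes in members are thus not independent of the rule. *Fn1* stood at 26.4, 32.9 and 25.5 UMIs per 10000 in the collagen hexagons of AAA 1 to 3, all below the members (0.74 ± 0.17, edgeR adjusted p = 0.000373). *Cpe*, carboxypeptidase E, stood at 20.9, 16.4 and 27.0 in members against 9.90, 11 and 13.3 (1.00 ± 0.26, edgeR adjusted p = 0.00142). *Col3a1*, the type III collagen gene, stood at 80.0, 49.97 and 66.1 against 114, 72.9 and 123 (-0.62 ± 0.08, edgeR adjusted p = 2.84e-11), and *C3*, the complement component, at 22.4, 16.4 and 15.5 against 47.3, 40.8 and 23.9 (-1.02 ± 0.21, edgeR adjusted p = 7.66e-05). *Igfbp4* stood at 47.4, 63.5 and 23.3 in collagen hexagons (-0.75 ± 0.19, edgeR adjusted p = 0.000847).

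In AAA mice alone 264 genes were tested against collagen hexagons and 6 passed (2.27%), 3 higher (1.14%) and 3 lower (1.14%). *Ccn2*, at 5.73, 5.49 and 4.99 UMIs per 10000 in collagen hexagons, was higher in members by 1.59 ± 0.27 (SE, log2; edgeR adjusted p = 0.0241). *Tm4sf1*, a membrane protein of endothelium and migrating cells, stood at 6.45, 11.2 and 8.01 in members against 2.48, 4.70 and 2.77 (1.37 ± 0.29, edgeR adjusted p = 0.0482). *Serpinf1*, a fibroblast gene, stood at 3.41, 2.58 and 4.51 against 7.29, 6.27 and 13.9 (-1.30 ± 0.28, edgeR adjusted p = 0.0482), and *Fn1*, *Col3a1* and *C3* were also past the threshold. *Cpe* and *Igfbp4* missed it there (edgeR adjusted p = 0.0709 and 0.133). Of 15 adventitial fibroblast genes 8 were tested, 2 were lower and 8 of 8 lay below 0, with a median of -0.73 against -0.05 over all genes. Since the collagen hexagons were chosen by UMIs of collagen and fibroblast genes, the direction of this list is not independent of the rule.

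The Mgp-rich hexagons were not uniform, and their *Ccn2* followed nearness to smooth muscle. In AAA mice 119, 48 and 123 members lay within 45 µm of a smooth muscle hexagon and 122, 52 and 108 farther away. This comparison was added after the data were seen, and in edgeR with the mouse as a block it called 4 of 116 genes tested (3.45%), 3 higher near (2.59%) and 1 lower (0.862%). *Ccn2* stood at 23.5, 30.2 and 24.7 UMIs per 10000 in near members and 5.67, 10.0 and 8.86 in those away, a log2 difference of 1.77 ± 0.34 (SE; edgeR adjusted p = 5.08e-05). The UMIs behind it were 33, 17 and 27 near and 7, 6 and 8 away. All 3 near values lay above all 3 away values. The Mgp-poor hexagons of the same mice, at any distance from smooth muscle, stood at 7.37, 5.90 and 8.23. Those hexagons were not split by nearness, so whether higher *Ccn2* near smooth muscle is particular to members was not tested.

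*Fn1* stood at 52.8, 53.3 and 68.6 in near members and 38.1, 31.8 and 33.2 in those away (0.80 ± 0.20, edgeR adjusted p = 0.00439), and *Flna* at 17.8, 14.2 and 26.5 against 13, 8.37 and 6.64 (1.08 ± 0.33, edgeR adjusted p = 0.0339). *Col3a1* went the other way, at 59.9, 42.6 and 48.5 near against 103, 56.9 and 87.5 away (-0.67 ± 0.16, edgeR adjusted p = 0.00166). For *Ccn2*, *Fn1* and *Col3a1* near and away values did not overlap between the mice except that *Col3a1* of AAA 1 near lay above that of AAA 2 away. Without AAA 1 none of 74 genes passed (*Ccn2* 1.59, edgeR adjusted p = 0.156), and without AAA 3 *Col3a1* was the only call among 101, with the directions of all 4 genes kept. *Fn1* and *Flna* passed in 0 of 3 fits that left out a mouse (without AAA 2, edgeR adjusted p = 0.209 and 0.239), and *Flna* ranged from 0.61 to 1.63. Near members also held more contractile UMIs, on average 0.824, 0.708 and 0.862 per hexagon against 0.525, 0.538 and 0.537, and the part of contractile RNA in these differences was not tested. Their *Mgp* stood at 5.77, 5.56 and 5.44 UMIs per hexagon near and 5.30, 5.13 and 5.46 away.

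**Figure D5:**
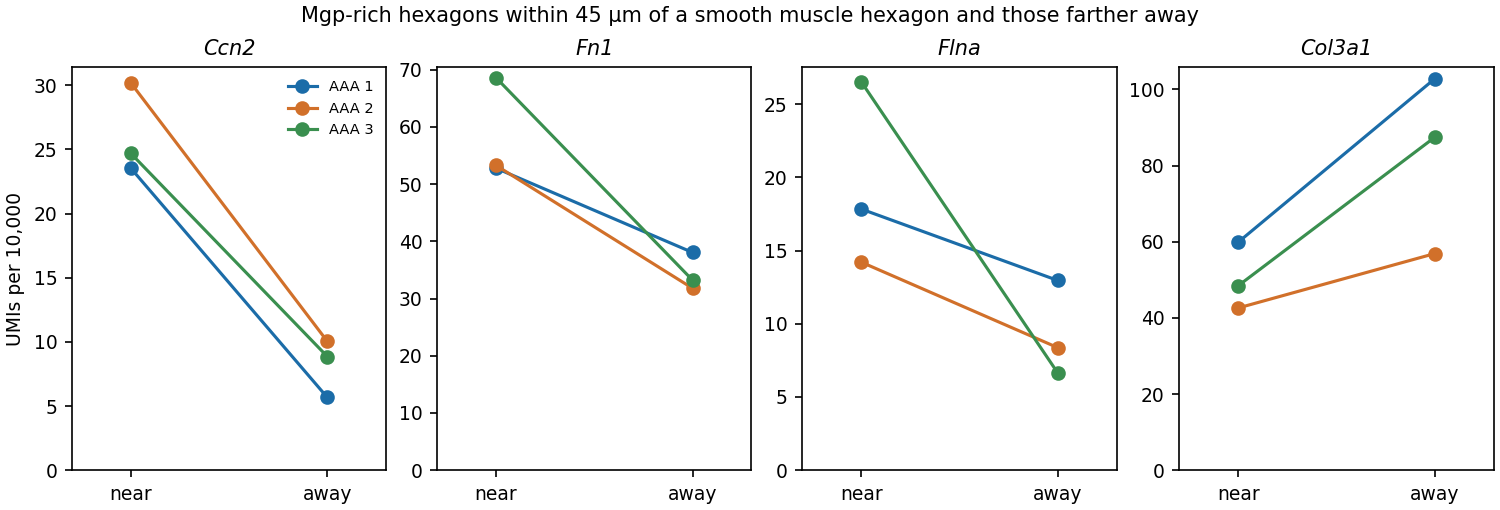
Level of 4 genes (UMIs per 10000, vertical axes from 0) in Mgp-rich hexagons within 45 µm of a smooth muscle hexagon (near) and farther away, in each of the 3 AAA mice (lines). *Ccn2*, *Fn1* and *Flna* were higher near and *Col3a1* was higher away in all 3 mice.

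Levels of some genes also differed with the number of *Mgp* UMIs in AAA members, given here as a description for genes chosen after their values were seen. *Fn1* stood at 40.6, 31.5 and 38.9 UMIs per 10000 in AAA 1 to 3 in members with 4 *Mgp* UMIs, at 41.1, 17.4 and 53.1 with 5 to 6, and at 60.7, 129 and 75.7 with 7 or more. The top class, with 51, 13 and 54 hexagons, was the highest in each mouse. *Tm4sf1* stood at 1.62, 8.75 and 3.43 with 4 *Mgp* UMIs, at 8.23, 2.48 and 4.83 with 5 to 6, and at 13.3, 37.5 and 19.9 with 7 or more. Those values came from 10, 10 and 26 UMIs in all. *Ccn2* had no such order in AAA 1, at 17.0, 15.1 and 11.8 over the 3 classes, while in AAA 2 it went from 10.5 to 69.7 and in AAA 3 from 9.15 to 25.9. *Eln* had no common order, at 16.2, 12.3 and 13.3 over the 3 classes in AAA 1. It stood at 5.25, 9.93 and 37.5 in AAA 2 and at 34.3, 9.66 and 23.9 in AAA 3. *Cfd* was lowest in the top class in each mouse, at 8.89, 16.1 and 9.97.

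Between AAA sections the members' *Fn1* ran from 20.9 to 103 UMIs per 10000, the highest from a section with 10 members, and *Ccn2* from 0 to 27.4. Within AAA 1 the third section held 1 *Ccn2* UMI in 44 members and the second 28 in 117.

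Between conditions the Mgp-rich hexagons showed no gene past the threshold. Their libraries held 1477, 251 and 537 UMIs outside the rule in controls 1 to 3 against 26371, 11608 and 19968 in AAA, and only 55 genes had the counts for a test. None passed in edgeR (0%), and DESeq2 also called 0. At an unadjusted edgeR p under 0.05 were 3 genes, *Ahsg* (log2 difference -1.84), *Cpe* (-1.28) and *Psap* (1.84), named after their values were seen. Whether the difference between members and Mgp-poor hexagons was unlike in AAA and control mice was tested as an interaction term over 265 genes, of which 0 passed (0%) and 31 had an unadjusted edgeR p under 0.05. Differences between conditions were thus not detectable at this depth, which does not show that there were none. *Fn1*, for example, had 4, 0 and 1 UMIs in control members and *Eln* 1, 0 and 0.

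Outside the sections, the rule found no member among 15059 hexagons of the other lane of the array, which allows a share of up to 0.0199%, and 6 of 2594 (0.231%) elsewhere on the same lane, below the share of every control.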

How the data were processed

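The deposited matrix holds UMI counts per gene and barcode, made by the authors from pooled libraries of all sections with STARsolo 2.7.5c on mm10. Exonic counts were used, with counts over whole genes as an alternative, and 8551 genes with names starting in mt or Gm were dropped. Section outlines were digitised by hand from the study's drawing, since the labels do not assign sections to mice, and were placed on the array with a residual SD of 71.8 µm over 40 edges. Animal-level replicates are therefore those of the drawing.

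UMIs were summed per mouse and hexagon class. The 11 genes of the rule were left out of tests and library sizes. Classes were compared with edgeR 4.0.16 (R 4.3.3; TMM, filterByExpr, quasi-likelihood test, Benjamini-Hochberg over all genes tested) with the mouse as a block, and DESeq2 1.42.0 was an alternative. Shares were compared over mice with exact permutation tests (scipy 1.17.1). On simulated counts of 265 genes for the comparison with Mgp-poor hexagons, 100% of changes of log2 2 and 69.7% of changes of log2 1 were recovered, with 1 false call among 133 unchanged genes. The simulation changed 132 of the 265 genes, while 3 passed in the data. Recovery with so few changed genes was not tested. Named genes were the markers and rule genes, up to 12 calls each way per comparison that were alike in the AAA mice, up to 4 frequent genes per list, and the 10 most frequent transcripts. Exceptions are said to have been chosen after their values were seen. The members and all lists were chosen with earlier results of these data known. No doublet caller was run, since a hexagon can hold several cells.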

Additional observations from a re-analysis of the deposited data

Results flagged for a closer look

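Sets of values over the 10 AAA sections, and the member share over the 10 control sections, were screened by Dixon's test. Of 10 sets, 3 held a section far from the others, all in AAA. Chance does so in about 1 of 20 sets of independent values, and sections of 1 mouse are not independent. *Cst3* stood at 122 UMIs per 10000 in the Mgp-rich hexagons of the third section of AAA 1, against 85.0 in the next section and 47.5 in the lowest. *Hba-a2*, a globin gene, stood at 114 in that same section, against 22.9 in the next and 0 in the lowest, from 46 UMIs. *Eln* stood at 51.7 in the fourth section of AAA 3, which held 23 members, against 23.8 in the next and 7.61 in the lowest.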

How the results depend on the processing

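Depth limits these results: control members held 2427 UMIs in all, and genes of few UMIs could not be tested. The share of members differed by 4.44 percentage points also with the embedding pair as a block (exact permutation p = 0.25, the smallest 3 pairs can give), and AAA against control genes gave 0 calls with the block. The main test of AAA against control genes used no pair term. Deviations of the members from their condition means correlated within the pairs at 0.10, -0.00 and 0.23 over 55 genes. With control libraries of 1477, 251 and 537 UMIs, these values cannot show whether paired mice are alike.

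Counts of calls moved as follows. AAA against control gave 100 with no filter on low counts, 1 with sums of at most 1, and 0 to 5 when a mouse was left out. Against Mgp-poor hexagons there were 6 with library size alone, 1 with DESeq2, 0 with no filter, 1 with 75 or more genes, 0 over whole genes and 5 with *Mgp* of at least 3. Against smooth muscle there were 15 with RLE factors, 12 with library size alone, 1 with DESeq2, 0 with no filter, 2 over whole genes, 19 with *Mgp* of at least 3, 1 with at least 5, 0 with sums of at most 1, 11 in AAA mice alone, and 0 to 8 without 1 mouse. Against collagen hexagons there were 0 with no filter and 2 with *Mgp* of at least 5. The interaction gave 5 with no filter, and near against away members gave 1 with no filter and 0 to 3 without 1 mouse. The cause of these shifts was not tested.

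The nearness of members to smooth muscle passed the exact permutation test at 16.3 points with 75 or more genes, 34.6 over whole genes, 16.6 with *Mgp* of at least 3 and 13.8 within 90 µm. It did not pass at 16.1 with *Mgp* of at least 5, 7.47 with sums of at most 1, 15.7 within 30 µm, or 12.3 to 24.2 without 1 mouse. The smooth muscle share of neighbours differed by 4.19 in AAA mice alone and 3.47 to 4.42 without 1 mouse, where fewer mice cannot pass.

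With no filter on low counts, log2 differences from Mgp-poor hexagons turned to -0.81 for *Bgn*, -0.87 for *Cst3*, -0.66 for *Eln*, -0.72 for *Fn1* and -0.22 for *Loxl1*, and those from smooth muscle to -0.49 for *Col3a1*, -0.26 for *Cst3*, -0.12 for *Hba-a2* and -0.020 for *Igfbp4*. Against smooth muscle *Ccn2* turned to 0.085 with DESeq2, 0.31 with *Mgp* of at least 5, 0.046 with sums of at most 1, -0.36 to 0.56 without 1 mouse (0.56 without AAA 1) and 0.13 with no replicate block. *Fn1* turned to 0.14 with *Mgp* of at least 5, 0.036 with sums of at most 1 and -0.28 to 0.033 without 1 mouse (0.033 without AAA 1), *Eln* to 0.074 with sums of at most 1 and *Hba-a2* to -0.18 without AAA 1, with up to 1.40 without AAA 2. Too few genes could be tested for AAA against control without AAA 1 or AAA 2, and against collagen hexagons with 75 or more genes or without an AAA mouse, so these were not run.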
